A study of Mus musculus with 185 samples.

Results

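The genes described here encode subunits of the ion channels that glutamate and GABA open directly. They are 28 of the 57010 genes in the count matrix: 4 AMPA receptor subunits (Gria1 to Gria4), 6 NMDA receptor subunits (Grin1, Grin2a to Grin2d and Grin3a), 5 kainate receptor subunits (Grik1 to Grik5), the delta receptor subunit Grid1 and 12 GABA-A receptor subunits (Gabra2 to Gabra6, Gabrb1, Gabrb2, Gabrg1, Gabrg3, Gabrd, Gabre and Gabrq). They were chosen by gene name, with earlier results of these data known. Each passed the filter on low counts, so every test below covers 28 of 28. The list does not hold every subunit of these families, and a share given within a family refers to the listed members.

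Bulk RNA-seq of brain areas was done on male C57BL/6J mice of 8 weeks, an inbred strain, with no transgene. In a study of 16 h, 18 mice were housed in pairs in 9 cages, 3 per diet, so that mice of a pair are not fully independent, and 6 mice each stayed on chow, were switched to a high-fat diet (HFD) or were fasted. In a study of 24 h, mice were housed singly, and 9 mice stayed on chow while 10 were fasted. Each mouse gave 5 libraries: hypothalamus, hippocampus and the superior and inferior colliculus, with prefrontal cortex at 16 h and zona incerta at 24 h. The headings of the matrix name the mouse of each column and not its brain area, so the unit of every diet comparison is the sum of the 5 columns of a mouse. Nothing below assigns a column to an area. In bulk tissue, fewer cells of a type and less RNA per cell cannot be told apart.

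AMPA receptors carry most fast excitatory current in the brain, NMDA receptors pass calcium when glutamate and depolarization coincide, and kainate receptors modulate release and slow excitation. GABA-A receptors are pentameric chloride channels, and the alpha, gamma, delta, epsilon or theta subunit present decides whether they sit at synapses or respond to ambient GABA. Because subunits are used in a region-specific manner, a mixture of brain areas holds many receptor types at the same time. Fasting recruits hypothalamic circuits whose neurons receive both glutamate and GABA, and the diet comparisons ask whether the transcripts of the receptors change.

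Counts per mouse ran from 57962237 to 161577364. Among the 185 columns, 27 were low, with under 1000000 counts or fewer than 16000 genes expected in a draw of 500000, 4 of them in the 16 h and 23 in the 24 h study. The submitters labelled 29 libraries fail STAR and 12 fail PCA, and excluded those with a low aligned share. All 24 libraries of a 24 h block sequenced on a separate flowcell are among the 29, 11 belonging to the chow group and 13 to the fasted group. The superior colliculus was lost unevenly at 24 h, with fail STAR on 1 of 9 libraries on chow and on 4 of 10 when fasted. Of the hypothalamus libraries, 3 failed on chow and 3 when fasted, and of the inferior colliculus libraries 2 and 2. For hippocampus and zona incerta the counts were 3 and 2 each. Since columns do not name their area, a failing library cannot be matched to its column, and the low columns stand in for them in the alternatives. Mitochondrial genes took 3.78 to 4.98% of counts at 16 h and 8.57 to 16.7% at 24 h. The notes of the 24 h study report that the superior colliculus tubes of a chow mouse (1423) and a fasted mouse (1454) were exchanged, and the study's methods say that the metadata of this pair were corrected. Whether the column headings carry the correction is not known here, so results at 24 h are given with and without this pair where it matters. Levels are log2 CPM, where CPM scales the counts of a mouse by its total, with a prior count of 2, scaled within each study, so a level at 16 h set beside one at 24 h is not a test. Markers of neurons (6 genes) summed to between 3547 and 4717 CPM in every mouse, whichever diet.

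AMPA receptor transcripts were led by Gria1 and Gria2, the subunit that makes the edited receptor impermeable to calcium. Per kilobase of all annotated exons, Gria1 had a median of 65.6 RPKM (range 56.6 to 104, n = 6) in the 16 h chow mice and 57.4 RPKM (43.7 to 78.7, n = 9) in the 24 h chow mice, and it ranked first of the 28 in both. Gria2 had 29.9 RPKM (27.8 to 33.9) and 19.0 RPKM (14.6 to 22.4). Gria4 was the lowest AMPA subunit at 9.70 RPKM (7.03 to 12.9) and 7.64 RPKM (5.93 to 9.47). These values depend on the length used. The exons of Gria2 cover 27443 bases in the annotation against 10767 in its canonical transcript, and with canonical lengths Gria2 made up 31.8% rather than 24.3% of the summed AMPA medians at 16 h, and Gria1 38.0% rather than 53.2%. Gria1 stayed above Gria2 with either length.

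Among NMDA subunits, Grin2b was highest per kilobase of exons, with 37.7 RPKM (34.2 to 48.5) at 16 h and 30.3 RPKM (19.4 to 59.5) at 24 h in chow mice. Grin1, the subunit every NMDA receptor needs, followed with 26.8 RPKM (25.0 to 28.4) and 22.7 RPKM (15.9 to 27.0). With canonical transcript lengths the order turned: Grin1 held 39.9% of the summed NMDA medians at 16 h and Grin2b 22.9%. The lowest were Grin2c at 16 h (4.62 RPKM, 3.71 to 16.0) and again at 24 h (4.88 RPKM, 2.73 to 7.29), with Grin2d close above it at 5.01 RPKM and 5.29 RPKM. The ranges of Grin2c and Grin2d overlapped in both studies. With canonical lengths Grin2d was the lower, at 7.25 RPKM and 7.66 RPKM against 9.62 RPKM and 10.2 RPKM for Grin2c.

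Kainate receptor transcripts were led by Grik5, a subunit that binds kainate with high affinity and needs a partner to form a channel, at 20.7 RPKM (19.6 to 21.7) and 15.2 RPKM (13.2 to 19.1). The other high-affinity subunit, Grik4, was lowest at 4.16 RPKM (3.25 to 4.46) and 3.31 RPKM (2.64 to 4.52). Grik1, which forms channels by itself, had 5.25 RPKM (4.51 to 6.08) and 4.47 RPKM (3.74 to 6.22). Grid1, a receptor-like protein that binds secreted cerebellins at synapses, had 17.8 RPKM (14.7 to 18.3) and 14.2 RPKM (12.9 to 16.7).

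The GABA-A subunits spanned the widest range of levels. Gabrb2, a beta subunit found in synaptic receptors, was highest with 24.0 RPKM (21.5 to 27.8) and 23.1 RPKM (17.9 to 33.9), and Gabrb1 came next with 18.2 RPKM and 15.6 RPKM. With canonical lengths Gabrb2 stayed first, and Gabra3 came next with 28.5 RPKM and 20.4 RPKM. Gabra6, a subunit of cerebellar granule cells, was lowest at 1.36 RPKM, with a range of 0.258 to 38.9 RPKM over the 6 chow mice at 16 h. At 24 h it had 1.94 RPKM (0.368 to 18.7). Gabre, which encodes the epsilon subunit, was next lowest at 2.31 RPKM (1.34 to 3.04) and 2.33 RPKM (0.231 to 3.54). Sorted by median, 24 of 27 neighbouring pairs among the 28 members had overlapping ranges over the 16 h chow mice and 27 of 27 over the 24 h chow mice. Gabra6, lowest by its median, reached the range of Grin2b in its highest chow mouse at 16 h, so the order by median does not hold in every mouse.

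**Figure D1:**
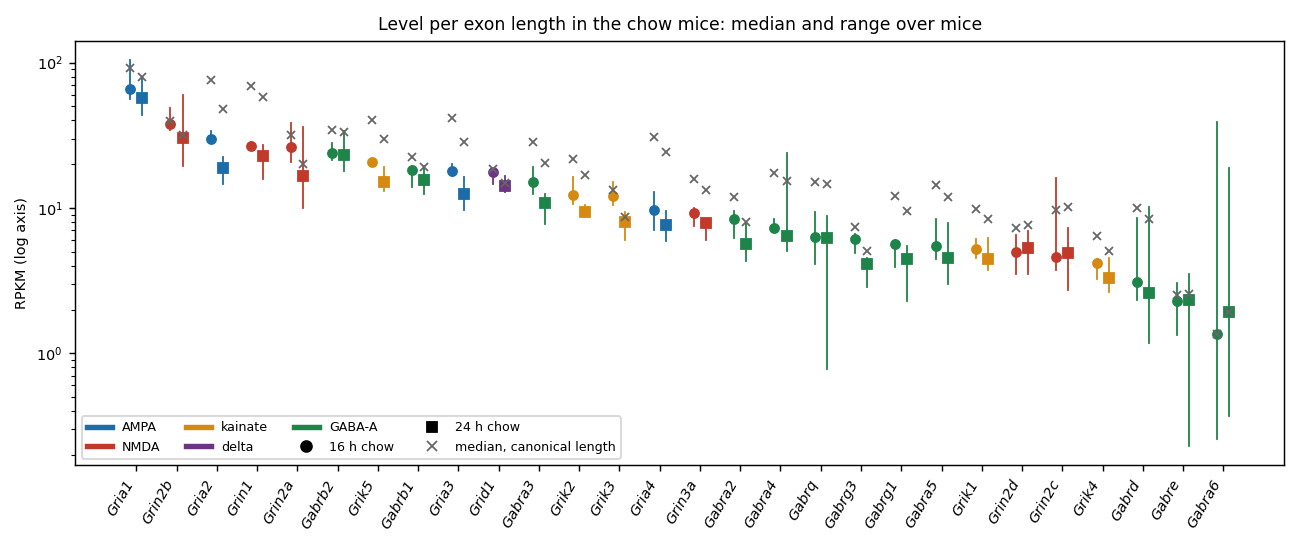
Level of each subunit per kilobase of exons (RPKM, log axis) in the chow mice of the 16 h study (circles, n = 6) and the 24 h study (squares, n = 9); symbols are medians, lines run from the lowest to the highest mouse, and crosses give the median with the canonical transcript length. Gria1 is highest with medians of 65.6 and 57.4 RPKM, and Gabra6 is lowest with a line that runs from 0.258 to 38.9 RPKM at 16 h.

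The spread of a subunit over the 5 columns of a mouse describes how unevenly its counts were spread over the 5 libraries. It was taken as the range of log2(CPM + 0.1) over the columns of a mouse, and its median over the 37 mice was 1.93 for the median member. The widest were 4 GABA-A subunits: Gabrq (theta) with a median range of 7.16, Gabre (epsilon) with 6.89, Gabra6 with 5.45 and Gabrd (delta, a subunit of extrasynaptic receptors) with 5.39. The narrowest were Grid1 with 0.66 and Grin1 with 1.14. Without the 27 low columns the same 6 genes were at the ends, Gabrq with 6.89, Gabre with 6.62, Gabra6 with 5.05, Gabrd with 5.04, Grin1 with 0.69 and Grid1 with 0.56.

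The shape of the spread differed between these genes. In the 16 mice with no low column, the median log2 level of Gabre fell from 5.36 in its highest column to 1.13 in the next and to -1.88 in the lowest. Gabrq went from 6.88 to 3.81 and to -0.24. Over all 37 mice, low columns included, the highest column gave a median of 87.9% of the Gabre counts of a mouse and 78.6% of the Gabrq counts, against 32.7% of the counts of all genes. Gabrd descended in steps that grew toward the lowest column, from 5.62 over 4.83, 3.98 and 2.65 to 0.13. Grin2b had a pair of high columns, at 11.11 and 10.65, and 3 columns between 8.83 and 9.09. Gria1 stood out in a single column at 10.44, above 9.14 in the next. Grin1 stayed between 7.71 and 8.48 in all 5.

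**Figure D2:**
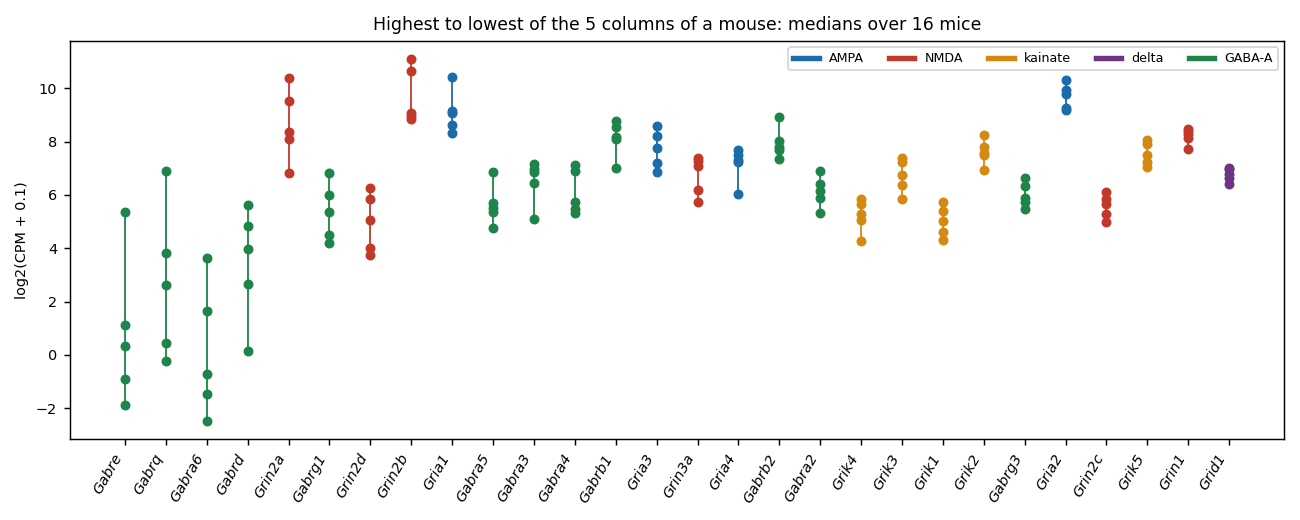
For each subunit, the 5 columns of a mouse sorted from highest to lowest, as log2(CPM + 0.1); points are medians over the 16 mice with no low column, and a line joins the 5 points of a subunit. Gabre and Gabrq show 1 high point far above the rest, Gabrd a descent whose last step is its largest, and Grin1 and Grid1 a tight group.

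Which subunits were high in the same columns was described by the correlation of their deviations from the mouse mean over the 158 columns that were not low. The 378 pairs of members ran from -0.95 to 0.97 with a median of -0.02, and 17 pairs lay above 0.8 and 12 under -0.8. Columns of a mouse share animal, day and study, and columns of one area recur in every mouse, so these coefficients are a description and carry no p. The sign of the coefficient was the same in the 86 columns at 16 h and the 72 columns at 24 h for 320 of the 378 pairs.

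A set led by GABA-A subunits known from hypothalamus was high in the same columns. Gabrq and Gabrg1 correlated at 0.97 and had their highest column in common in 32 of 37 mice. Gabre followed Gabrq at 0.94, with the same highest column in 35 of 37 mice. Grin3a, an NMDA subunit that lowers calcium entry, followed Gabrg1 at 0.89, Grin2d followed Grin3a at 0.86, and Grik1 followed Grin3a at 0.83. Of the markers listed for brain areas and cell types, Agrp and Oxt, a peptide of feeding neurons and the hormone oxytocin, both of the hypothalamus, were closest to Gabre at 0.87 each. Agrp was also closest to Gabrg1 and Gabrq, at 0.84 each. An astrocyte marker was closest to Grin3a (Aldh1l1 at 0.79) and to Grin2d (Gja1 at 0.81). Closest to Grik1 was C1ql1, a marker of oligodendrocyte precursors, at 0.63, with Agrp also at 0.63. Grin2a, the NMDA subunit of mature forebrain synapses, was opposed to the set, at -0.95 with Gabrg1 and -0.94 with Gabrq, and shared its highest column with either gene in 0 of 37 mice.

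A second set held Gria1, Gabra2, Gabra5, Grik4 and Grik5. Gria1 correlated with Gabra2 at 0.88 and with Gabra5, an alpha subunit of extrasynaptic receptors in hippocampal pyramidal cells, at 0.87, and had its highest column in common with Gabra5 in 35 of 37 mice. The hippocampal marker Fibcd1 was the marker closest to Gria1 at 0.73, and the choroid plexus marker Kl came next at 0.71. Kl was closest to Gabra2 (0.63) and Grik4 (0.58), and the hippocampal marker Neurod6 to Gabra5 (0.69) and Grik5 (0.79). Gria4 ran opposite to this set, at -0.81 with Gabra5 and -0.80 with Gria1. Further pairs were Gria3 with Grin2a at 0.89, Grin2b with Gabra4 at 0.85 and Grik3 with Gabrg3 at 0.77. Gabra6 stood apart from the other members, with -0.63 with Gabrb1 and -0.48 with Gabra2 as its largest coefficients in size. It followed the cerebellar granule cell markers Cbln3 and Fat2 at 0.97 each. Cbln1 and Neurod1, also listed for granule cells, were less close to it than Aqp4 (astrocyte) at 0.52 and Tcf7l2 (thalamus) at 0.51.

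**Figure D3:**
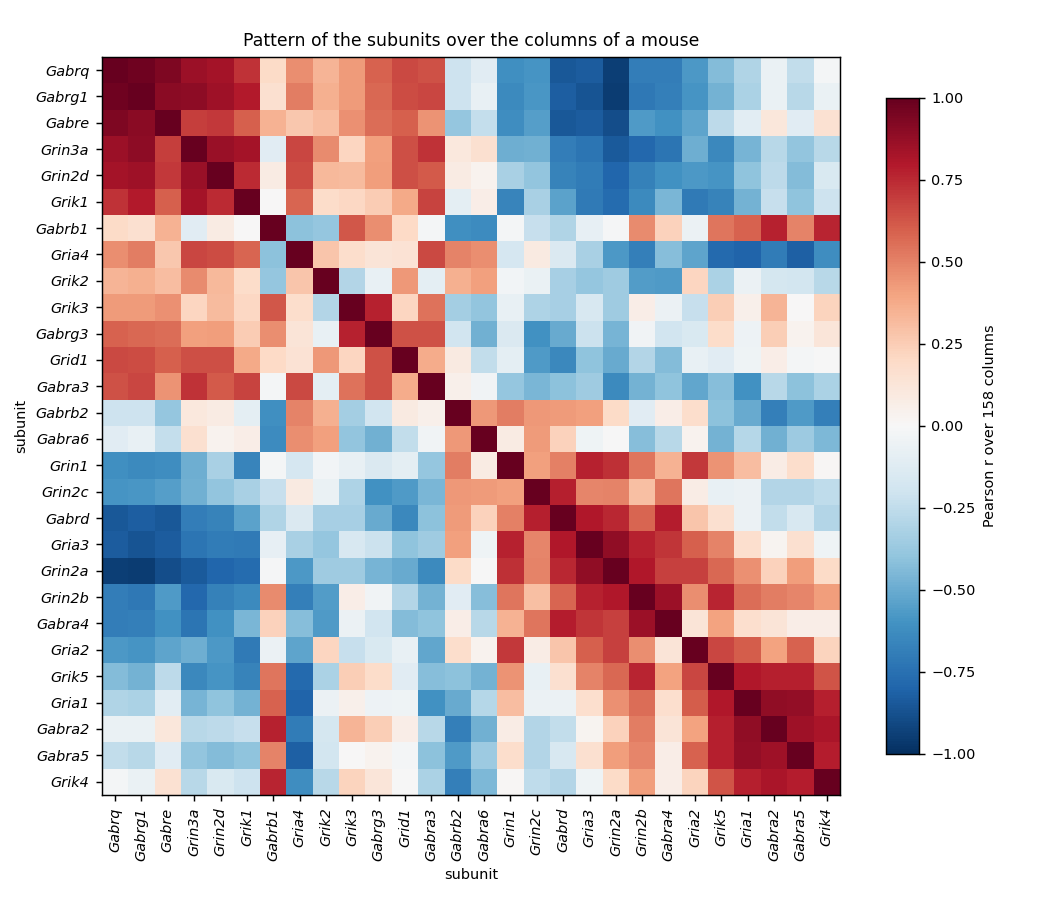
Pearson correlation between the subunits over the 158 columns that were not low, each taken as deviation of log2(CPM + 0.1) from the mouse mean; red is positive and blue negative. The block from Gabrq to Grik1 at the upper left and the block from Grik5 to Grik4 at the lower right are the sets named in the text, and Grin2a is dark blue against Gabrq and Gabrg1.

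Neighbours in the genome were alike in some cases and not in others. Gabre, Gabra3 and Gabrq lie within 1 stretch of the X chromosome (71299605 to 71886208 in GRCm39, from the start of Gabre to the end of Gabrq), and Gabrg1, Gabra2, Gabra4 and Gabrb1 lie next to each other on chromosome 5 (70906506 to 72319431). Gabrg1 correlated with Gabrq on the X chromosome at 0.97 and with its neighbours Gabra2, Gabra4 and Gabrb1 at -0.07, -0.68 and 0.16. Gabre and Gabrq correlated at 0.94, while Gabra3, which lies between them, gave 0.45 with Gabre and 0.64 with Gabrq over the 158 columns. With Gabre it gave 0.25 at 16 h and 0.74 at 24 h, and with Gabrq 0.44 and 0.90. The 250 bases before the start are printed for the 3 GABA-A subunits that moved most closely together over columns and for Gabra6, from RefSeq on GRCm38.p6, which is another build than that of the counts. Each is written 5′ to 3′ on the strand of the gene, and capitals mark CG dinucleotides.
Gabrq, chrX:72824928-72825177, plus strand: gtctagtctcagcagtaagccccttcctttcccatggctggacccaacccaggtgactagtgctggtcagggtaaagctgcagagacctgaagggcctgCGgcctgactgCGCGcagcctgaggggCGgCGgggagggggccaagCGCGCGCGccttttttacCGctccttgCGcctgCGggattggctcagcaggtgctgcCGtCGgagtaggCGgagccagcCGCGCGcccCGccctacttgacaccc
Gabre, chrX:72274722-72274971, minus strand: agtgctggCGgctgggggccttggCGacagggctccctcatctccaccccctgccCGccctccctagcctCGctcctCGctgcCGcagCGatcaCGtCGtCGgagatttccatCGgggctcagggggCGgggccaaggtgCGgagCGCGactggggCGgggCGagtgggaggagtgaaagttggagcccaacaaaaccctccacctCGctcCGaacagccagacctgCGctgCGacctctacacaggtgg
Gabrg1, chr5:70842618-70842867, minus strand: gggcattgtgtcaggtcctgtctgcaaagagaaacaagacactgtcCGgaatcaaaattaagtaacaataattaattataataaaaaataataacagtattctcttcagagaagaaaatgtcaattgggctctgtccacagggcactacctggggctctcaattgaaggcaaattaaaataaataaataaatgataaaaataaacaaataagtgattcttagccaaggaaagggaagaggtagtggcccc
Gabra6, chr11:42321073-42321322, minus strand: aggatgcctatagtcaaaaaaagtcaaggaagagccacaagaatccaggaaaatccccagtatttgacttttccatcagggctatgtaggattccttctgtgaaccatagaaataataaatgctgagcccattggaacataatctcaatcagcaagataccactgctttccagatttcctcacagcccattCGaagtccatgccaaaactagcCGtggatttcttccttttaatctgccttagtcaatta

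Gabrq and Gabre, with 19 and 21 CG dinucleotides and 67.2% and 68.8% G and C, have CG-rich promoters, while Gabrg1 has 1 and 35.6% although its column pattern was that of Gabrq. Gabra6 has 2 and 40.8%. The median over 32536 distinct promoters of the same length was 6 CG dinucleotides and 52.4% G and C. The table held 24 promoters for 20 of the 28 members, with a median of 10.5. It gave none for Gria1, Gria3, Grin2a, Grin2b, Grin3a, Grik1, Grid1 and Gabrd. The letters TATAAA on either strand were in 3 of the 24 (of Gabra3 and Gabrb2) and in 12.3% of all promoters, CCAAT in 10 of the 24 and in 33.8%, and TGACGTCA, the cAMP response element, in 0 of the 24 and in 1.56%.

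The comparison of fasted and chow mice at 24 h asks whether a day without food changes receptor transcripts. Grik1 and Grin3a were lower in fasted mice, and no listed AMPA, delta or GABA-A subunit passed the test. By edgeR's quasi-likelihood test with Benjamini-Hochberg adjustment over all genes, 2 of 28 members passed an adjusted p of 0.05 and both fell, which is 7.14% of the members against 11.4% of the 29011 genes tested, or 5.62% for genes that fell. The members' share is below that of all genes in both directions together and, with 2 members, close to that of the genes that fell. At an unadjusted p under 0.05 the members were 4 of 28, 1 higher and 3 lower, against 24.2% of all genes. The median log2 fold change was 0.06 over the members and -0.0044 over all genes, and its median size was 0.15 and 0.13.

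Grik1 lies on chromosome 16 (87692788 to 88087153, minus strand, ENSMUSG00000022935). Its log2 CPM was 4.65 at the lowest, 4.91 at the median and 5.39 at the highest in chow mice and 3.97, 4.60 and 5.05 in fasted mice. Of the 10 fasted mice, 9 were below the chow median and 6 below every chow mouse, and the groups overlapped. The log2 fold change was -0.37 (SE 0.12, 95% confidence interval -0.61 to -0.12), a level 0.775 times that on chow, with an adjusted p of 0.0462 (edgeR).

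Grin3a lies on chromosome 4 (49661611 to 49845847, minus strand, ENSMUSG00000039579), where an exon of a predicted gene on the other strand overlaps it. It ranged from 6.30 over a median of 6.68 to 6.78 in chow mice and from 5.72 over 6.35 to 6.69 in fasted mice. Again 9 of 10 fasted mice lay below the chow median, and 4 lay below every chow mouse. The log2 fold change was -0.34 (SE 0.11, -0.56 to -0.11), which is 0.793 times, with an adjusted p of 0.04999 (edgeR).

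Both calls sit close to the threshold and depend on single mice. With each of the 19 mice left out in turn, both calls were kept in 3 fits (without chow mouse 1422 and without fasted mice 1425 and 1455), and 11 fits called 0 members. Without mice 1423 and 1454, whose tubes had been exchanged, the count was 0. The log2 fold change stayed negative in every fit, from -0.43 to -0.23 for Grik1 and from -0.38 to -0.28 for Grin3a.

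The remaining NMDA and kainate subunits, Grin1, Grik2 and Grik5 among them, gave values on either side of 0. Grin1 had a log2 fold change of 0.20 (SE 0.09, adjusted p 0.160) and Grik5 one of 0.24 (SE 0.12, adjusted p 0.209), both not called by edgeR. Grik2 had a log2 fold change of -0.18 (SE 0.09, adjusted p 0.237), also not called by edgeR. Of the 10 fasted mice, 8 lay below every chow mouse in Grik2 and 1 lay above every chow mouse. In the ratio of Grin3a to Grin1, which relates a modulatory subunit to the obligatory one, the mean log2 ratio was -1.84 ± 0.42 in fasted mice (SD, n = 10) and -1.27 ± 0.31 in chow mice (SD, n = 9). The difference of -0.57 had p = 0.00397 in a two-sided exact permutation test and an adjusted p of 0.0636 over 16 tests of 4 ratios in 4 comparisons, so it did not pass. The ratios of Gria1 to Gria2, of Grin2a to Grin2b (the switch between mature and juvenile NMDA receptors) and of Gabrd to Gabra4 (partners in extrasynaptic receptors) differed by 0.02, 0.10 and 0.33, with adjusted exact p of 0.857, 0.658 and 0.633.

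Among GABA-A subunits, Gabra2 had the lowest unadjusted p at 24 h, with a log2 fold change of -0.29 (SE 0.12, adjusted p 0.143 by edgeR). Its level was 4.95, 5.35 and 5.78 in fasted mice (lowest, median, highest) and 5.29, 5.66 and 6.12 on chow, so that 4 of 10 fasted mice lay below every chow mouse. Gabrd, Gabre and Gabrq had log2 fold changes of 0.40, 0.05 and 0.16, with standard errors of 0.40, 0.53 and 0.45. For 20 of the 28 members the 95% interval lay within a 1.5-fold change in either direction. The 8 others were Grin2a, Grin2c, Grik1, Gabra4, Gabra6, Gabrd, Gabre and Gabrq, whose intervals reach beyond a 1.5-fold change. At 24 h, 0 of 28 members had groups free of overlap, against 1.60% of all genes.

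**Figure D4:**
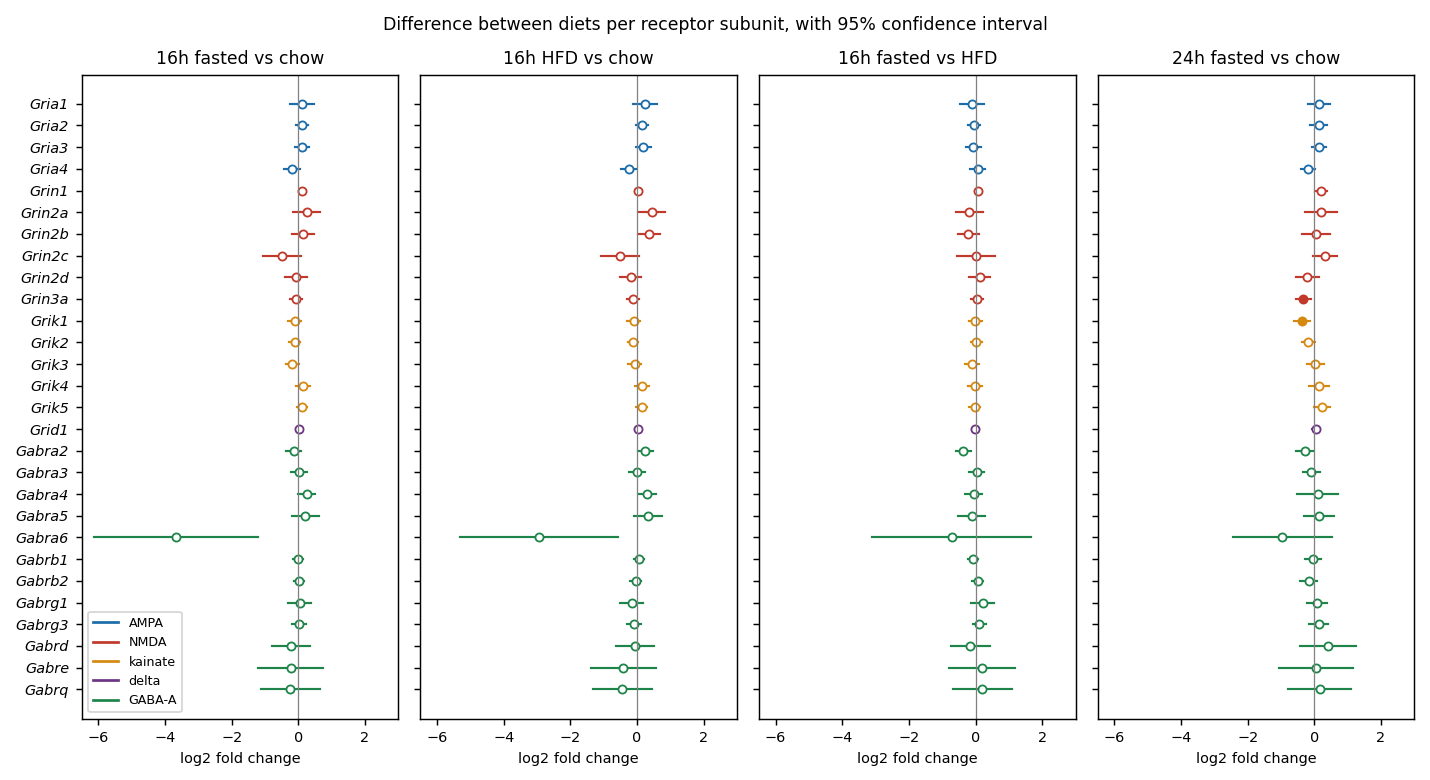
Log2 fold change of each subunit in the 4 diet comparisons (first group relative to the second), with the 95% confidence interval as a line and colours by receptor family; filled points passed an adjusted p of 0.05 in edgeR. The filled points are Grik1 and Grin3a in the 24 h study, and the long lines belong to Gabra6.

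The genes around the receptors were described from 5 lists of 59 partner genes. None of 14 auxiliary subunits, 15 excitatory scaffold genes or 8 inhibitory scaffold genes passed at 24 h. Of 9 metabotropic receptors 1 fell: Grm7, a presynaptic glutamate receptor, with a log2 fold change of -0.23 (SE 0.07, adjusted p 0.0416, edgeR). Among genes of transmitter synthesis and transport, Glul rose. Glul, the astrocytic enzyme that turns glutamate into glutamine, had a log2 CPM of 10.17, 10.52 and 10.65 on chow and 10.76, 11.06 and 11.67 in fasted mice, which do not overlap, and a log2 fold change of 0.63 (SE 0.11, adjusted p 0.000471).

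Some cell type markers changed at 24 h as well. Of 5 microglia markers 3 fell (P2ry12, Tmem119 and Cx3cr1), and the list summed to 97.3 to 139.9 CPM on chow and 78.3 to 132.4 CPM when fasted. Of 5 astrocyte markers Aqp4 and Gja1 fell, and of 4 endothelial markers Cldn5 and Flt1. Of 6 neuron markers 0 were called, and their sum ran from 3587 to 4390 CPM on chow and from 3547 to 4538 CPM when fasted. The 5 hypothalamic markers summed to 7.45 to 143 CPM on chow and 15.1 to 223 CPM when fasted, and Agrp, 1 of the 5, rose. Their part in the differences of Grik1 and Grin3a was not tested.

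**Figure D5:**
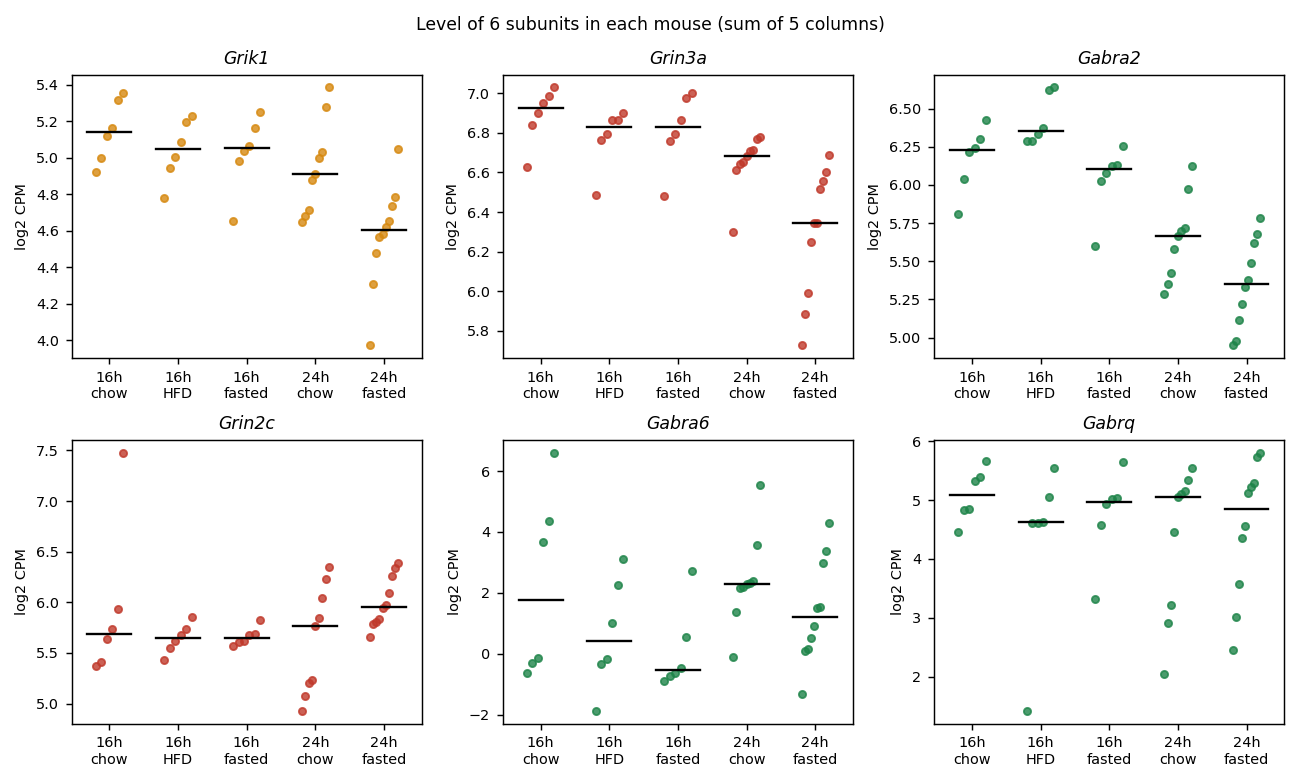
Log2 CPM of 6 subunits in each mouse (points) by study and diet, with the group median as a line. Grik1 and Grin3a are lower in the 24 h fasted mice with overlap, Gabra2 separates HFD from fasted mice at 16 h, Grin2c has 1 chow mouse far above the rest at 16 h, and Gabra6 ranges widely in every group.

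After 16 h of fasting, 0 of 28 members passed the test against chow, and the same was true of 0% of the 29746 genes tested with edgeR. DESeq2 called 0 members and 19 genes. At an unadjusted p under 0.05 the members were 2 of 28, against 7.62% of all genes, and no member was free of overlap, against 0.360% of all genes. The 3 members with the lowest p were Gabra6, Grin1 and Gabra4. Grin1 had a log2 CPM of 8.11, 8.22 and 8.30 on chow and 8.25, 8.28 and 8.55 when fasted, with a log2 fold change of 0.11 (SE 0.05, adjusted p 0.638). Gabra4, an alpha subunit of extrasynaptic receptors, had 6.13, 6.19 and 6.41 on chow and 5.98, 6.47 and 6.89 when fasted, a log2 fold change of 0.25 (SE 0.12, adjusted p 0.658). With equal weight for each column and the low columns kept, the sign turned for both. A low column of the fasted group held 2994 counts. With equal weight and low columns left out, neither sign turned. The part of that column was not tested.

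Gabra6 had the largest estimates of any member, and its values varied widely between mice. Its log2 CPM was -0.63, 1.77 and 6.60 in chow mice, -1.87, 0.41 and 3.12 on HFD and -0.91, -0.55 and 2.72 in fasted mice, so the diets overlapped. The log2 fold change of fasted against chow was -3.66 (SE 1.17, -6.12 to -1.20, unadjusted p 0.00581 by edgeR, adjusted p 0.565). Chow mouse 6 alone was at 6.60, and without it the estimate was -2.03 (adjusted p 0.780). With equal weight for each column it was -0.70. The 4 cerebellar granule cell markers summed to 1071 CPM in that mouse and to 33.3 to 221 CPM in the other chow mice. The part of such tissue in the difference was not tested.

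After 16 h on HFD, 0 of 28 members passed against the same chow mice, and 0% of all genes did. DESeq2 called 0 members and 5 genes. At an unadjusted p under 0.05 there were 6 of 28 members, which is 21.4% against 9.80% of all genes, 4 higher and 2 lower on HFD. No member was free of overlap, against 0.612% of all genes. Gabra4 had 6.27, 6.49 and 6.84 on HFD, with 5 of 6 HFD mice above every chow mouse, and a log2 fold change of 0.30 (SE 0.12, adjusted p 0.503). Gria4 had 7.01, 7.20 and 7.36 on HFD against 6.98, 7.45 and 7.86 on chow, with a log2 fold change of -0.25 (SE 0.11, adjusted p 0.507). The estimate for Gabra6 was -2.94 (SE 1.13, adjusted p 0.503), and -1.30 without chow mouse 6.

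Between fasted and HFD mice at 16 h, Gabra2 separated the diets without passing the test. Its log2 CPM was 5.60, 6.10 and 6.26 in fasted mice and 6.29, 6.35 and 6.64 on HFD, so each of the 6 fasted mice lay below each of the 6 HFD mice. It was the single member of 28 with no overlap in this comparison, against 1.31% of all genes. The log2 fold change was -0.38 (SE 0.11, -0.60 to -0.16, unadjusted p 0.00216 and adjusted p 0.151 by edgeR), and DESeq2 gave an adjusted p of 0.0535. In all, 0 of 28 members passed with edgeR and 0 with DESeq2, against 0.219% of all genes with edgeR. At an unadjusted p under 0.05 Gabra2 was the 1 member, against 11.4% of all genes. Grin1 followed with 0.08 (SE 0.05, adjusted p 0.617) and Grin2b with -0.22 (SE 0.15, adjusted p 0.654). Set beside chow, Gabra2 gave -0.14 (SE 0.11) for fasting and 0.25 (SE 0.11) for HFD, comparisons that share the chow mice.

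The members called at 24 h gave smaller values at 16 h. Grik1 had 4.92, 5.14 and 5.35 on chow, 4.78, 5.05 and 5.23 on HFD and 4.66, 5.05 and 5.25 when fasted, and its log2 fold change for fasting was -0.12 (SE 0.10, adjusted p 0.804, edgeR). Grin3a had 6.63, 6.93 and 7.03 on chow, 6.49, 6.83 and 6.90 on HFD and 6.48, 6.83 and 7.00 when fasted, and a log2 fold change of -0.07 (SE 0.09, adjusted p 0.868). The test of the difference between the studies did not separate the effects. The fasting effect at 24 h minus that at 16 h was -0.26 for Grin3a (95% interval -0.57 to 0.05, adjusted p 0.601) and -0.25 for Grik1 (-0.59 to 0.09, adjusted p 0.687). In that test 0 of 28 members passed with edgeR and 0 with DESeq2, against 1.70% of the 30849 genes tested, and 1 member had an unadjusted p under 0.05, against 10.8% of genes. That member was Grin2c, an NMDA subunit of cerebellar granule cells and astrocytes, with a difference of 0.80 (SE 0.32, adjusted p 0.295). Chow mouse 6, with a log2 CPM of 7.48 for Grin2c and high granule cell markers, weighed on it: without this mouse the difference was 0.28 (adjusted p 0.865). The studies also differ in housing, areas and sequencing, which cannot be told apart from the duration of the fast.

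At 16 h, 0 of 59 partner genes passed in each of the 3 comparisons. The 12 ratio tests between diets at 16 h gave adjusted exact p values from 0.641 to 0.998. The 95% intervals of 21, 19 and 21 of 28 members lay within a 1.5-fold change for fasted against chow, HFD against chow and fasted against HFD. The interval of the median member reached 0.23 to either side of its log2 fold change at 16 h and 0.27 at 24 h. For Gabra6 it reached 2.46 for fasted against chow at 16 h, the widest interval of any member.

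Gabrq, widest over columns, also varied between mice of a group. It ran from 1.42 to 5.54 on HFD at 16 h, from 2.05 to 5.55 on chow at 24 h and from 2.45 to 5.81 in fasted mice at 24 h. In each of the 3 diets at 16 h, the mouse lowest in Gabrq (chow mouse 6, HFD mouse 13, fasted mouse 12) was also lowest in the summed hypothalamic markers, at 45.9, 3.34 and 23.6 CPM. At 24 h, the 3 chow mice lowest in Gabrq (1422, 1451 and 1441) had 23.6, 7.45 and 11.2 CPM of these markers and the other 6 had 41.7 to 143 CPM. The 3 lowest fasted mice (1445, 1455 and 1435) had 21.9, 15.1 and 33.7 CPM and the other 7 had 68.5 to 223 CPM. The hypothalamus library of all 6 of these 24 h mice and of fasted mouse 12 carries the label fail STAR, that of HFD mouse 13 the label fail PCA, and that of chow mouse 6 is labelled ok. No other mouse has a hypothalamus library with a failing label. The part of these libraries in the level of Gabrq was not tested.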

How the data were processed

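Total RNA depleted of ribosomal RNA was sequenced from 5 brain areas of 37 mice. The authors demultiplexed with bcl2fastq 2.20.0, aligned to GRCm39 with STAR 2.7.3a and deposited raw counts per gene, 57010 genes in 185 columns. The annotation release and the strand counted are not given in the sources used here, so reads of genes that overlap on opposite strands may be mixed. Headings give the mouse and not the area. All columns were used, those of libraries the authors excluded among them, since headings do not show which they are, and the deposited counts were summed over the 5 columns of a mouse.

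Diets were compared within each study by the quasi-likelihood test of edgeR 4.0.16 (R 4.3.3, low counts removed by filterByExpr, TMM scaling, two-sided, Benjamini-Hochberg over all genes tested, threshold 0.05), the 3 diets at 16 h sharing 1 fit. The mouse was the replicate. DESeq2 1.42.0, with genes of 10 or fewer counts summed over the mice of the fit left out, was an alternative. Subunit ratios per mouse were compared with exact permutation tests (scipy 1.17.1), whose smallest possible p was 0.00216 for 6 against 6 mice and 1.08e-05 for 9 against 10. Levels between genes are RPKM over all annotated exons or the canonical transcript. Low columns were left out of column correlations. The other alternatives were DESeq2 size factors, no filter, sums without low columns, equal weight per column, the mitochondrial share as covariate, cage sums, a block for the round of cages, a threshold of 0.1, leaving out each mouse, and leaving out the mice of the exchanged tubes. The canonical length and the difference between studies without chow mouse 6 were added after the data were seen. So was the 24 h fit that left out both the mice of the exchanged tubes and the low columns. The scripts were tested on simulated data.

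The members, gene lists, tests and limits for low columns were chosen with earlier results of these data known. Genes named with values per group were every member called, the 3 with the lowest p where none was called, the highest and lowest per length of each family, the 4 widest and 2 narrowest over columns, and up to 3 called genes of each partner list. A result from these lists is not reported here. Grin2c, Grik2, Grik5, the members with wide intervals and the correlated pairs were named after their values were seen.

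Markers of 14 cell types or areas were also examined. At 24 h, 1 of 6 oligodendrocyte markers (Mobp), 1 of 3 oligodendrocyte precursor markers (Pdgfra) and 1 of 5 striatal markers (Ppp1r1b) rose, and 0 were called in the lists for choroid plexus, cerebellar granule cells, hippocampus, cortex, thalamus and pituitary. Single mice stood far above the rest in some lists. Striatal markers summed to 1651 CPM in fasted mouse 1445, against a median of 86.4 CPM in fasted mice. Choroid plexus markers reached 3925 CPM in fasted mouse 1453 and 1709 CPM in chow mouse 1443. Pituitary markers reached 1123 CPM in chow mouse 1431. The part of such tissue in the differences was not tested.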

Additional observations from a re-analysis of the deposited data

Results flagged for a closer look

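In 17 of 140 combinations of a subunit and a group, the highest or lowest mouse stood apart from the others of its group by Dixon's criterion. For a single combination chance gives about 1 in 20. The combinations share mice and libraries and are not independent, so the count is not a test of an excess. The 17 fell on 7 mice, and the log2 CPM of each is given with the range of the other mice in the group.

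On HFD at 16 h, mouse 13 was lowest for Gabre at -1.04 (others 2.81 to 3.93), Gabrq at 1.42 (4.61 to 5.54), Grin3a at 6.49 (6.77 to 6.90) and Grid1 at 6.73 (6.78 to 6.81), and highest for Grin1 at 8.39 (8.19 to 8.24). Its hypothalamic markers summed to 3.34 CPM. Mouse 16 was lowest for Gabrb2 at 7.72 (8.02 to 8.17). In chow mice at 16 h, mouse 6 was highest for Grin2c at 7.48 (5.37 to 5.94) and Gabrd at 5.75 (3.85 to 4.44), which are both transcripts of cerebellar granule cells, and lowest for Grid1 at 6.52 (6.75 to 6.84) and Gabrg1 at 5.31 (5.81 to 5.94). Its granule cell markers summed to 1071 CPM. Over the 158 columns that were not low, the closest marker was Neurod1 (granule cell) for Grin2c at 0.59. For Gabrd it was Snap25 (neuron) at 0.71. The part of hypothalamic or cerebellar tissue in the values of these mice was not tested.

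In fasted mice at 16 h, mouse 11 was lowest for Gabra2 at 5.60 (6.03 to 6.26) and Gabrb1 at 8.03 (8.21 to 8.32), and mouse 12 was highest for Grin1 at 8.55 (8.25 to 8.30). In chow mice at 24 h, mouse 1422 was lowest for Grin3a at 6.30 (6.61 to 6.78), Gabra3 at 5.75 (6.12 to 6.43) and Gabrg1 at 4.54 (5.26 to 5.79), and mouse 1441 was highest for Grid1 at 6.71 (6.33 to 6.52). Without mouse 11 the log2 fold change of Gabra2 between fasted and HFD mice was -0.30.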

How the results depend on the processing

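The count of 2 members called at 24 h was 0 with DESeq2 size factors, without the filter, without low columns, without mice 1423 and 1454, and without both these mice and low columns. It was 1 with DESeq2 and with the mitochondrial covariate (Grik1 each time) and 1 with equal weight per column (Grin2c). With equal weight and no low columns it was 3, Grin3a (adjusted p 0.0236, limma), Gabra2 and Grin2c. Leaving out each mouse gave 0 to 2. Fewer samples or columns entered some of these fits, and otherwise the cause was not tested. The 3 comparisons at 16 h and the difference between studies gave 0 members under every alternative run. Each mouse was left out in turn at 16 h, again with 0 members, but for the difference between studies chow mouse 6 alone was left out. The reversals that follow come from fits that kept the low columns, unless stated, and a fasted column at 16 h held 2994 counts. With low columns left out, Grin1 and Gabra4 kept their sign at 16 h. For the ratios, equal weight without low columns was not run. With equal weight per column the sign turned for Grin1 (-0.36) and Gabra4 (-0.10) between fasted and chow mice at 16 h, for Grin1 between fasted and HFD mice (-0.29), for Gabra6 in the difference between studies (-0.29, and -0.71 also without low columns), and for these ratios: Gria1 to Gria2 at 24 h (-0.0645) and between fasted and HFD mice (0.0388), Grin2a to Grin2b between HFD and chow (-0.0100), Gabrd to Gabra4 between fasted and chow mice at 16 h (0.0536) and fasted and HFD mice (0.19), and Grin3a to Grin1 in the same 2 comparisons (0.37 and 0.41). With canonical lengths the share of the family level moved for Gria1 in the 16 h chow mice from 53.2 to 38.0% and in the 24 h chow mice from 59.5 to 44.1%, with the studies in the same order from 24.3 to 31.8% and 19.7 to 26.7% for Gria2, from 24.5 to 39.9% and 25.9 to 41.2% for Grin1, and from 34.4 to 22.9% and 34.5 to 22.5% for Grin2b. No paired analysis was possible because the groups compared share no replicate numbers. A block for the round of cages, which is not a pairing of mice, was fitted at 16 h and gave 0 members in each comparison. Depth differs between columns of a mouse, so the sum weights deep libraries more.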
